A study of Mus musculus with 64 samples.

Results

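The colon of germ-free mice after vancomycin was profiled by RNA-seq at 4 times of day, and the times were compared with each other across all genes. The libraries were chosen by their labels alone: the 16 of the 64 libraries of the series that came from germ-free (GF) mice given vancomycin, 4 at each of ZT5, ZT11, ZT17 and ZT23. ZT counts hours from lights on under a 12 h light and 12 h dark cycle, so ZT5 and ZT11 fall in the light and ZT17 and ZT23 in the dark. All mice of the series were wild-type Swiss Webster animals 8 to 12 weeks old on standard chow, and whole colon was taken. Those given vancomycin received 2.5 mg in 100 µl PBS by intraperitoneal injection, 2 times a day for 3 days and 1 more time on day 4. The comparison groups were GF mice given 100 µl PBS by the same schedule (16 libraries) and specific-pathogen-free (SPF) mice given the same vancomycin (16 libraries), each also with 4 libraries at each time. GF mice were moved out of their sterile isolators into ISOcages for the treatment. The labels state neither the hours between the last injection and sampling nor that each library came from its own animal, so the p-values speak of variation among the libraries, which may be technical.

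The circadian clock of a mammalian cell is a loop of transcription factors. CLOCK or its relative NPAS2 pairs with ARNTL (also called BMAL1), binds E-box elements and switches on the Period and Cryptochrome genes, whose proteins then inhibit that pair. The same pair drives Nr1d1 and Nr1d2, nuclear receptors that repress Arntl, Npas2 and Nfil3 through ROR elements. It also drives Dbp and Tef, activators at D-box elements, where NFIL3 represses. In the intestine this loop runs in the epithelium and in the muscle and nerve layers, and feeding can set its hour.

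Each vancomycin library summed to between 11814400 and 14892600 estimated counts. Markers of colon epithelium were abundant at every time: Muc2, the mucin of goblet cells, had medians of 13124, 4446, 3756 and 9764 CPM (counts scaled to a library of equal size) at ZT5, ZT11, ZT17 and ZT23. Of markers of tissues that a dissection could carry along, the medians of Krt5 and Krt13 (squamous epithelium), Cpa1 (pancreas), S100a8 (neutrophils) and Myh4 (skeletal muscle) were 0.387 CPM or less at every time. Others were not near 0: the medians at the 4 times ran from 10.8 to 36.8 CPM for Adipoq (fat), from 26.3 to 55.9 CPM for Ckm (muscle) and from 43.9 to 183 CPM for Cela1, an elastase that was the 1 pancreatic marker tested. Genes that mark the position along the gut differed between libraries of 1 group. A position score, the mean log2 CPM of distal Hox genes minus that of proximal Hox genes, was under 0 in 2, 1, 0 and 2 of the 4 libraries at ZT5, ZT11, ZT17 and ZT23. It was lowest in ZT5 replicate 3 (-7.16) and ZT23 replicate 2 (-5.45). The Y-linked gene Ddx3y was at 0.396 CPM or less in 3, 1, 2 and 3 of 4 libraries in the same order of times. In those libraries the mean log2 CPM of the 4 Y-linked genes tested was 1.41 or less, against 5.17 or more in the others. Among these genes, Uty was at 14.04 CPM or more in every library. These are bulk libraries, so fewer cells of a type and less RNA per cell cannot be told apart.

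Across the 4 times, 24 of 16951 genes tested differed (0.142%; edgeR's quasi-likelihood F test, Benjamini-Hochberg adjusted p under 0.05, the meaning of "called" here). Of them 10 are clock genes, out of 21 clock genes tested (47.6%). The other 14 were Coq10b, Klf9, Sprr2a1, Mt2, Mt1, Ces1d, Fbxo3, Usp2, Smim10l1, Wdr89, H2ac18, Mchr1, Tcp11 and Gm47154. The genes at an unadjusted p under 0.05 numbered 1612 (9.51% of those tested). The highest mean was at ZT17 in 12 of the 24, at ZT5 in 5, at ZT23 in 4 and at ZT11 in 3. Among all genes tested the highest mean was at ZT5 in 4606, ZT11 in 4355, ZT17 in 4700 and ZT23 in 3290. In 23 of the 24, every library of the highest time was above every library of the lowest time, which held for 9.34% of all genes tested; the exception was Usp2. In 9 of the 24, all 4 libraries of the highest time were above all other 12, which held for 0.33% of all genes: Ciart, Coq10b, Dbp, Klf9, Mchr1, Nr1d2, Per1, Per3 and Sprr2a1. Where other separations between times are given below, the share of all genes so separated was not counted. They describe the genes and add no support to a call.

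With times 6 h apart, the 4 means split into a 24 h wave, which gives an amplitude (the log2 distance from mean level to peak) and a peak hour, and a 12 h remainder. The 24 h wave was called for 34 genes (0.201%). They included 23 of the 24 above, Tcp11 being the exception, and 11 more: Tns4, Efna3, Cipc, Sema6d, E2f2, Zbtb16, Ier5, Grhpr, Per2, Gm3617 and H2ac24. No gene was called for the 12 h remainder by edgeR; 1167 genes had an unadjusted p under 0.05, the smallest adjusted p was 0.60, and DESeq2 called 13. DESeq2 called 179 genes across the 4 times, among them all 24 genes, and 152 for the 24 h wave. Leaving out single libraries moved the count across the 4 times between 14 (without ZT17 replicate 1) and 69 (without ZT11 replicate 1), and it was 39 without ZT17 replicate 4. For the 24 h wave it moved between 16 (without ZT11 replicate 3) and 73 (without ZT11 replicate 1), and it was 19 without ZT23 replicate 4. The same 10 clock genes were called without ZT11 replicate 1.

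**Figure D1:**
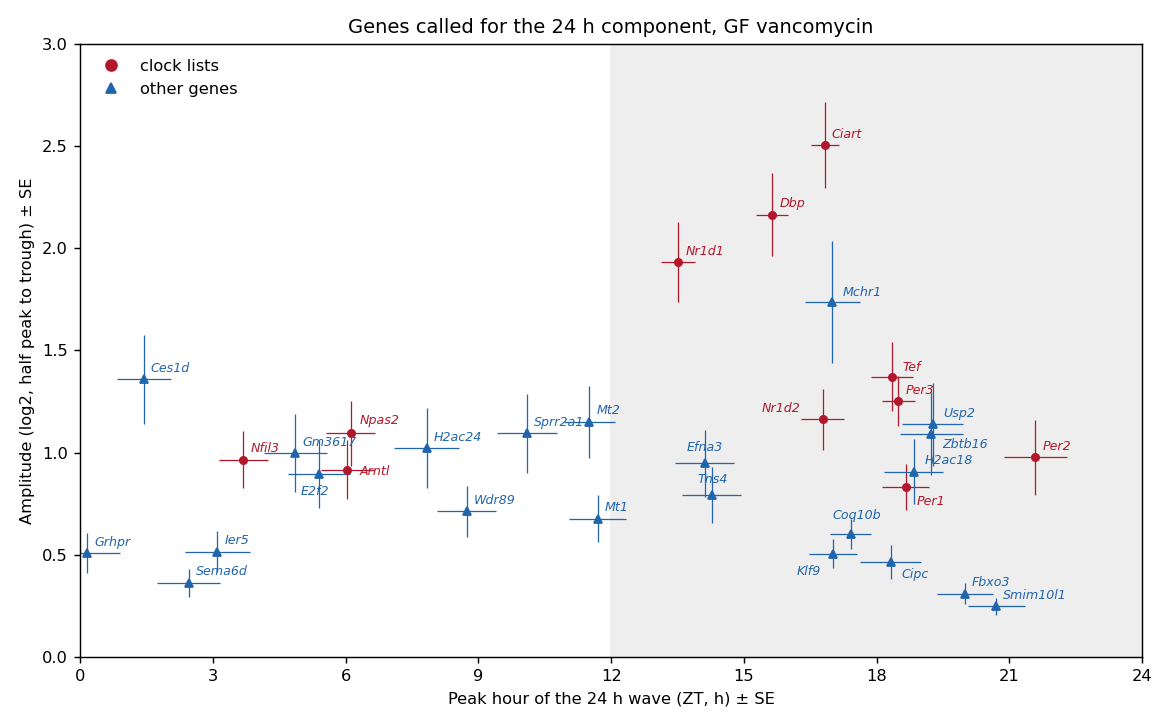
Amplitude (y axis, log2) against peak hour (x axis, ZT in h), each ± SE, for genes called for the 24 h wave in GF vancomycin colon, with clock genes as circles, other genes as triangles and the dark phase in grey; Gm47154, at 0 in every ZT17 library, is left out. The clock genes called across the 4 times lie between 0.83 and 2.51 in amplitude, with Nfil3, Npas2 and Arntl peaking in the light and the others between ZT13.5 and ZT18.7.

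The clock is known to act through E-box, D-box and ROR elements, and the promoters of the 34 genes with a 24 h wave were searched for these letters. RefSeq promoter windows (GRCm38.p6, 250 bases before to 50 after each start) were found for 27 of them; the count tables were made on another build, GRCm39. The E-box CACGTG was in 7 of the 27 (25.9%), against 8.09% of 27025 RefSeq genes, tested here or not: Ciart, Coq10b, Tef, Per1, Mchr1, Cipc and Sema6d. Of these, Sema6d peaked at ZT2.45 and the rest between ZT16.8 and ZT18.7. A D-box, TTATGTAA or TTACGTAA on either strand, was in 4 of the 27 (14.8%), against 1.23% of all: Per3, Coq10b, Smim10l1 and H2ac18. A ROR element, TAGGTCA or TGGGTCA on either strand, was in 3 of the 27 (11.1%), against 7.35% of all: Nfil3, Arntl and Wdr89. No match of 1 motif overlapped a match of another, and a match is a description, not a binding site. The stretches below are shown because they carry the elements beside the genes whose hours are described next: 4 with E-boxes that peaked between ZT16.8 and ZT18.7, Per3 with a pair of D-boxes, which peaked at ZT18.5, and 2 with a ROR element that peaked in the light. Each is written 5′ to 3′ on the gene's strand, with the element in capitals, a ROR element reading TGACCTA where it lies on the other strand.
Ciart, E-boxes, chr3:95882247-95882364, minus strand: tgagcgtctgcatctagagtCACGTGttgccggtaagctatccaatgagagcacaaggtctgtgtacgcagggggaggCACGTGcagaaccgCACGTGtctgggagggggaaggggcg
Per1, E-box, chr11:69098763-69098808, plus strand: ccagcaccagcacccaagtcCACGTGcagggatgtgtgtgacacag
Tef, E-box, chr15:81802526-81802571, plus strand: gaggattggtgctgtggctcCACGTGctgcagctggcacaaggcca
Coq10b, E-box, chr1:55052672-55052717, plus strand: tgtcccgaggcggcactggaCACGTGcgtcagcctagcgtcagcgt
Per3, D-boxes, chr4:151044796-151044890, minus strand: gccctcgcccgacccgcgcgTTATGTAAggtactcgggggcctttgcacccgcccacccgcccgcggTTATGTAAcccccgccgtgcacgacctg
Nfil3, ROR element, chr13:52981040-52981071, minus strand: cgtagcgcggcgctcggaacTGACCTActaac
Wdr89, ROR element, chr12:75669718-75669764, minus strand: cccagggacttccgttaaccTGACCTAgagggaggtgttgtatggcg

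The E-boxes of Ciart began 116, 58 and 44 bases before its start, that of Per1 166 before and that of Coq10b 78 before. The ROR element of Nfil3 began 12 bases before its start, and that of Arntl lay at -30 on the same count, which is after its start. None of the 3 elements, as spelled here, was in the windows of Dbp, Nr1d1, Nr1d2, Npas2, Klf9 or Usp2.

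Of the repressor arm of the clock, 5 of 10 members tested were called across the 4 times, each with its highest mean at ZT17. Nr1d1, the nuclear receptor REV-ERBα, had the earliest peak of the 5. It stood at 10.1, 17.3, 61.6 and 10.7 CPM at ZT5, at 98.3, 163, 123 and 105 at ZT11, at 155, 131, 146 and 82.7 at ZT17, and at 12.3, 13.9, 22.2 and 10.4 at ZT23. The ZT11 and ZT17 libraries overlapped with each other and not with those of ZT5 or ZT23. Its amplitude was 1.93 ± 0.20 (log2, SE) and its peak hour ZT13.5 ± 0.388 h (edgeR adjusted p = 6.95e-05). Replicate 3 of ZT5, at 61.6 CPM, is the library with the lowest position score. Nr1d2, its paralog REV-ERBβ, stood at 17.6, 21.2, 36.4 and 13.5 CPM at ZT5, at 45.6, 82.5, 71.0 and 66.8 at ZT11, at 116, 146, 89.6 and 90.7 at ZT17, and at 64.2, 68.3, 48.3 and 61.4 at ZT23. It peaked at ZT16.8 ± 0.485 h, with an amplitude of 1.16 ± 0.15 and every ZT17 library above all others (edgeR adjusted p = 0.00173).

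Ciart, which encodes the CLOCK and ARNTL inhibitor CHRONO, had the largest amplitude of the clock genes. It stood at 0.936, 1.16, 1.91 and 2.19 CPM at ZT5, at 4.45, 5.22, 3.40 and 4.16 at ZT11, at 77.0, 65.4, 43.6 and 15 at ZT17, and at 2.55, 3.29, 6.98 and 1.86 at ZT23. All 4 ZT17 libraries were above the other 12, and ZT17 replicate 4 was the lowest of them. The amplitude was 2.51 ± 0.21 at a peak hour of ZT16.8 ± 0.315 h (edgeR adjusted p = 4.00e-08).

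The 3 Period genes encode the proteins that inhibit CLOCK and ARNTL. Per1 stood at 30.4, 27.3, 48.0 and 51.6 CPM at ZT5, at 32.4, 33.2, 33.5 and 27.1 at ZT11, at 126, 148, 89.1 and 83.3 at ZT17, and at 52.4, 50.1, 56.7 and 45.4 at ZT23. Per3 stood at 11.2, 9.09, 21.7 and 15.6 CPM at ZT5, at 14.7, 29.2, 29.2 and 21.1 at ZT11, at 90.3, 83.3, 57.0 and 56.9 at ZT17, and at 48.5, 51.2, 43.2 and 39.2 at ZT23. In both, ZT17 was above every other library; Per3 was still above both light-phase times in all 4 ZT23 libraries. The peak hours were close, ZT18.7 ± 0.523 h for Per1 (amplitude 0.83 ± 0.11, edgeR adjusted p = 1.03e-04) and ZT18.5 ± 0.373 h for Per3 (amplitude 1.25 ± 0.12, adjusted p = 1.90e-05). Per2 averaged 59.9 ± 9.09, 37.3 ± 19.5, 97.9 ± 43.3 and 132 ± 36.2 CPM at ZT5, ZT11, ZT17 and ZT23 (SD, n = 4 each). Its edgeR adjusted p was 0.105 across the 4 times and 0.0473 for the 24 h wave, which peaked latest of the 3 at ZT21.6 ± 0.713 h. ZT11 replicate 3, at 10.2 CPM, and ZT17 replicate 3, at 36.9 CPM, were the low libraries of Per2 at those times.

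The D-box activators were also highest at ZT17, and with their repressor Nfil3, 3 of 4 members of this family were called. Dbp stood at 4.75, 8.10, 21 and 6.49 CPM at ZT5, at 45.3, 41.3, 33.0 and 32.9 at ZT11, at 256, 219, 138 and 59.8 at ZT17, and at 11.9, 20.1, 10.7 and 10.5 at ZT23. Tef stood at 30.9, 36.9, 45.9 and 31.2 CPM at ZT5, at 42.3, 96.5, 67.6 and 64 at ZT11, at 241, 275, 179.6 and 168 at ZT17, and at 122, 177, 133 and 88.9 at ZT23. Dbp had all ZT17 libraries above the rest and was back near its ZT5 level at ZT23, while Tef stayed high at ZT23, where 1 library reached into the ZT17 range. Dbp peaked at ZT15.6 ± 0.362 h with an amplitude of 2.17 ± 0.21 (edgeR adjusted p = 1.99e-06). Tef peaked later, at ZT18.3 ± 0.476 h, with an amplitude of 1.37 ± 0.17 (edgeR adjusted p = 0.00111). Hlf, the third activator of this family, was not called (adjusted p = 0.813): its libraries ran from 4.15 to 144 CPM within ZT17 alone.

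Nfil3, the repressor at D-boxes, moved the other way. It stood at 12.0, 19.4, 20.3 and 15.6 CPM at ZT5, at 9.17, 3.76, 4.96 and 5.00 at ZT11, at 3.5, 6.34, 4.43 and 4.78 at ZT17, and at 8.40, 13.9, 4.76 and 8.92 at ZT23. Only the ZT23 libraries reached into the ZT5 range. It peaked at ZT3.69 ± 0.551 h with an amplitude of 0.97 ± 0.14 (edgeR adjusted p = 0.00233).

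Of the activating arm, 2 of 7 members tested were called, and both peaked in the light. Arntl stood at 88.4, 68.4, 43.7 and 65.5 CPM at ZT5, at 43.2, 48.1, 46.7 and 48.4 at ZT11, at 17.3, 6.10, 20.4 and 34.5 at ZT17, and at 27.6, 22.2, 45.3 and 37.5 at ZT23. Npas2 stood at 79.8, 45.3, 56.7 and 34.8 CPM at ZT5, at 52.1, 38.3, 41.8 and 31 at ZT11, at 9.02, 7.68, 13.6 and 20.4 at ZT17, and at 26.5, 25.1, 32.1 and 22 at ZT23. In both genes the ZT17 libraries lay below every library of the 2 light-phase times. Their peak hours were ZT6.04 ± 0.60 h for Arntl (amplitude 0.92 ± 0.14, edgeR adjusted p = 0.0213) and ZT6.11 ± 0.548 h for Npas2 (amplitude 1.09 ± 0.16, adjusted p = 0.00909). The lowest Arntl value at ZT5 came from replicate 3 and the highest at ZT17 from replicate 4, the library that was also lowest in Ciart, Dbp and Nr1d1.

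**Figure D2:**
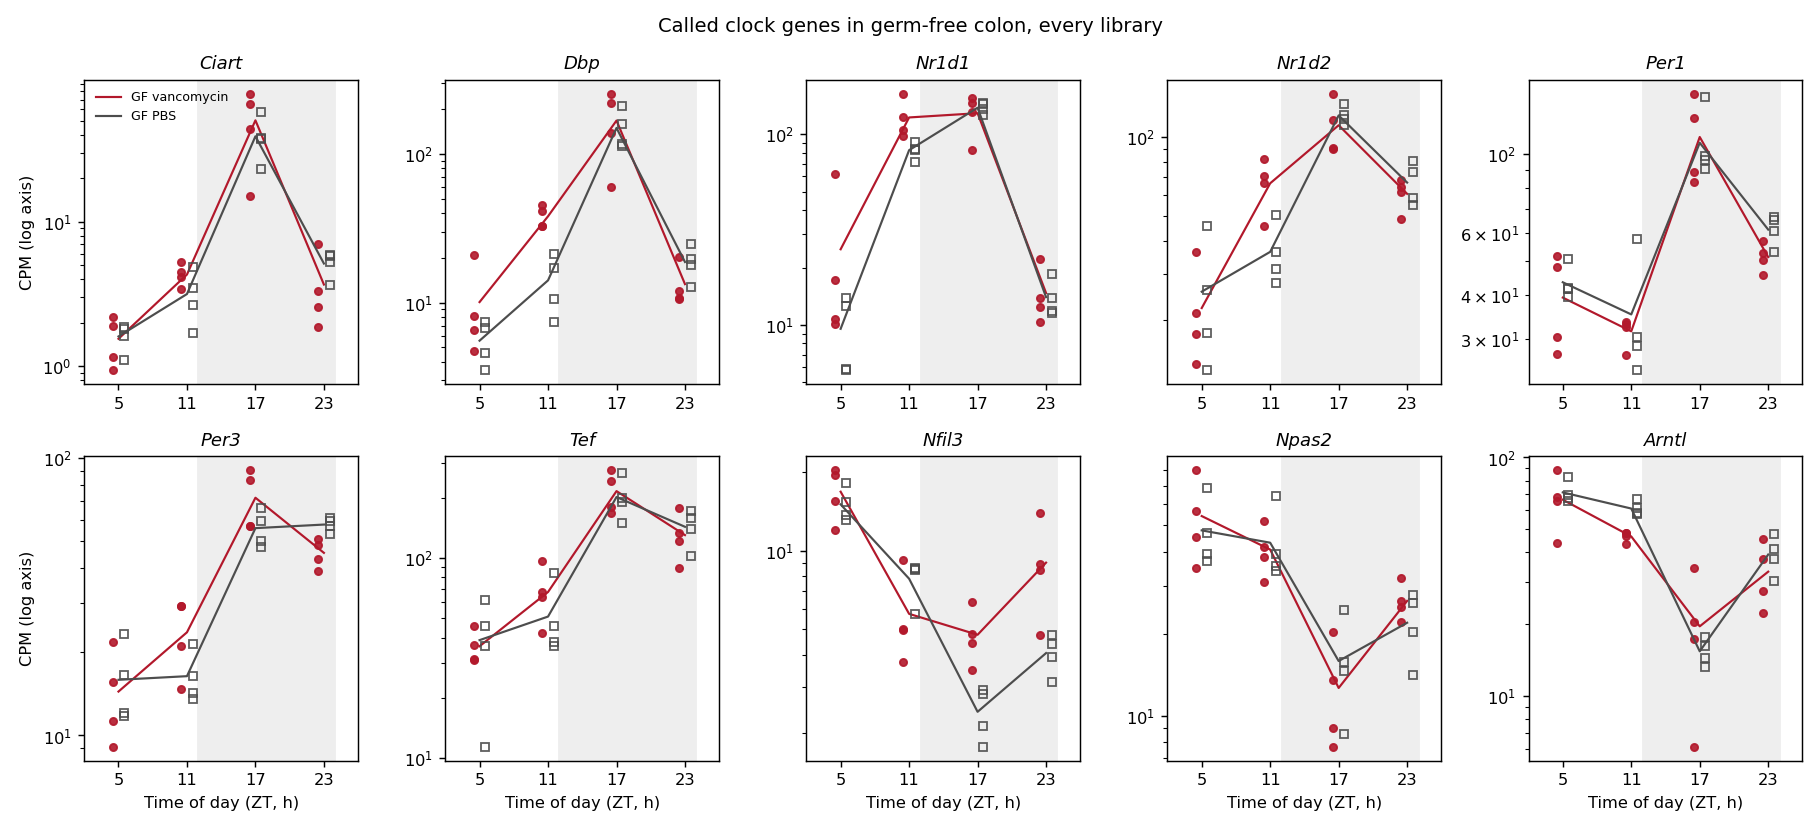
CPM (y axis, log scale) of the 10 called clock genes at ZT5, ZT11, ZT17 and ZT23 (x axis), 1 point per library, filled circles for GF vancomycin and open squares for GF PBS, with lines through the group means; the grey band is the dark phase. After vancomycin the means of Ciart, Dbp, Nr1d1, Nr1d2, Per1, Per3 and Tef are highest at ZT17, and those of Nfil3, Npas2 and Arntl at ZT5.

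The other 11 clock genes were not called across the 4 times, though 7 of them had an unadjusted p under 0.05. Among the remaining repressors, Cry1 averaged 110.6 ± 59.2, 49.4 ± 28.1, 26.1 ± 27.2 and 88.2 ± 23.4 CPM at ZT5, ZT11, ZT17 and ZT23 (SD, n = 4 each), a wave as tall as that of Npas2 (1.12 ± 0.31, peak ZT3.54 ± 1.06 h) with a wider spread (edgeR adjusted p = 0.447). Cry2 (edgeR adjusted p = 0.165), and Bhlhe40 (0.518) and Bhlhe41 (0.160), whose proteins bind E-boxes and repress, had amplitudes of 0.33, 0.32 and 0.96. Clock itself stayed between a mean of 73.6 CPM at ZT17 and 105.5 CPM at ZT11, with an amplitude of 0.14 (edgeR adjusted p = 0.242). Rora, Rorb and Arntl2 had amplitudes of 0.18, 0.22 and 0.22 and edgeR adjusted p-values of 0.953, 0.869 and 0.887. The median amplitude of all genes tested was 0.18.

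Among 11 genes known as clock outputs of many tissues, 2 were called, Coq10b and Usp2, and 8 had an unadjusted p under 0.05, against 9.51% of all genes tested. Coq10b, which encodes a coenzyme Q binding protein of mitochondria, stood at 32.2, 31.2, 22.9 and 21.9 CPM at ZT5, at 33.0, 38.7, 38.6 and 37.1 at ZT11, at 67.4, 65.5, 53.2 and 61.6 at ZT17, and at 43.7, 31.8, 38.7 and 47.0 at ZT23. Every ZT17 library was above all others, with an amplitude of 0.60 ± 0.07 and a peak at ZT17.4 ± 0.466 h (edgeR adjusted p = 3.81e-04). Usp2, a ubiquitin protease, averaged 11.4 ± 2.54, 9.53 ± 6.03, 42.0 ± 25 and 23 ± 3.63 CPM at the 4 times (SD, n = 4 each). Its ZT17 libraries ran from 16.8 to 76.1 CPM and overlapped with ZT11, whose highest library had 18.4 CPM. Its peak hour was ZT19.3 ± 0.679 h (amplitude 1.14 ± 0.20, edgeR adjusted p = 0.0279), and it was called in 18 of 28 alternative settings.

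Of 19 glucocorticoid targets and metallothioneins, 4 were called: Per1, Klf9, Mt2 and Mt1. Klf9, a zinc finger factor that glucocorticoid induces and that is also a clock output, stood at 90.2, 105, 85.1 and 88.8 CPM at ZT5, at 109.9, 106, 115 and 105 at ZT11, at 179, 256, 158 and 150.2 at ZT17, and at 95.4, 99.8, 123 and 119 at ZT23. All ZT17 libraries were above the rest, and the peak was at ZT17 ± 0.545 h (amplitude 0.50 ± 0.07, edgeR adjusted p = 0.00111). The metallothioneins, which bind zinc and copper, were highest earlier, at ZT11. Mt2 stood at 90.7, 67.5, 89.6 and 40.2 CPM at ZT5, at 92.7, 241, 214 and 126 at ZT11, at 96.3, 126, 85.6 and 48.4 at ZT17, and at 47.3, 48.7, 22.9 and 19.5 at ZT23. Mt1 averaged 218 ± 45.8, 377 ± 116, 258 ± 64.8 and 149.9 ± 33.5 CPM at the 4 times (SD, n = 4 each). In both genes every ZT11 library was above every ZT23 library. The peak hours were ZT11.5 ± 0.585 h for Mt2 (amplitude 1.15 ± 0.18, edgeR adjusted p = 0.0162) and ZT11.7 ± 0.644 h for Mt1 (amplitude 0.68 ± 0.11, adjusted p = 0.0336), which was called in 16 of 28 alternative settings. Zbtb16, another glucocorticoid target, was called for the 24 h wave, with a peak at ZT19.2 ± 0.715 h (amplitude 1.09 ± 0.20, edgeR adjusted p = 0.0473).

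Sprr2a1, a small proline-rich protein of the epithelial surface, had its highest mean at ZT11, late in the light. It stood at 23.9, 42.2, 40.8 and 49.3 CPM at ZT5, at 54.4, 139, 178 and 105 at ZT11, at 15.9, 25, 29.9 and 38.8 at ZT17, and at 34.2, 21.7, 19.8 and 33.5 at ZT23. All ZT11 libraries were above the other 12 (amplitude 1.09 ± 0.19, peak ZT10.1 ± 0.673 h, edgeR adjusted p = 0.00630). Sprr2a1 has near-identical copies in the genome, so how the reads were divided among them is uncertain. Ces1d, a carboxylesterase, was the 1 gene called of 37 xenobiotic metabolism genes tested. It stood at 39.2, 38.5, 105 and 34.8 CPM at ZT5, at 23.7, 17, 12.6 and 17.3 at ZT11, at 13.9, 27.4, 10.7 and 19 at ZT17, and at 96.8, 144, 29.1 and 50.9 at ZT23. The ZT5 and ZT23 libraries lay above all others, at a peak of ZT1.43 ± 0.610 h (amplitude 1.36 ± 0.22, edgeR adjusted p = 0.0213). Its highest libraries at those times, ZT5 replicate 3 and ZT23 replicate 2, are those with the lowest position scores. Without these 2 libraries, an alternative chosen after seeing the data, the amplitude was 1.02 and the call was lost.

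The remaining genes called changed by less or stood at low levels. Fbxo3, a subunit of a ubiquitin ligase, averaged 58.8 ± 5.77, 60.3 ± 5.2, 79.7 ± 3.30 and 81.6 ± 5.82 CPM at ZT5, ZT11, ZT17 and ZT23 (SD, n = 4 each). Smim10l1, a small membrane protein, averaged 102 ± 6.59, 101 ± 6.87, 124 ± 5.56 and 134 ± 8.29 CPM. In both, all 8 dark-phase libraries were above all 8 light-phase libraries, with amplitudes of 0.31 ± 0.05 (edgeR adjusted p = 0.0279) and 0.25 ± 0.04 (adjusted p = 0.0281). How many of all genes separate this way was not counted, so the separation describes these calls and adds no support. Wdr89 averaged 12.1 ± 2.72, 10.7 ± 2.08, 6.94 ± 1.65 and 4.70 ± 0.429 CPM and was highest in the light, peaking at ZT8.73 ± 0.669 h (edgeR adjusted p = 0.0336). Of 28 alternative settings, Fbxo3 was called in 16, Smim10l1 in 14 and Wdr89 in 11. H2ac18, a histone H2A gene, averaged 8.63 ± 2.40, 9.38 ± 0.965, 26.3 ± 12.4 and 16.8 ± 3.30 CPM (edgeR adjusted p = 0.0345) and was called in 13 of the 28 settings. Histone genes have near-identical copies and mostly lack poly(A) tails, so these poly(A)-selected values are uncertain. Mchr1, the melanin-concentrating hormone receptor, was at most 1.56 CPM outside ZT17 and at 2.41, 6.58, 2.90 and 2.04 CPM at ZT17 (edgeR adjusted p = 0.0230). Tcp11 was called through ZT23, where its libraries had 4.69, 30.7, 1.84 and 2.64 CPM, so 1 library set its mean. The predicted gene Gm47154 was at 0 in all 4 ZT17 libraries, which allows up to 0.256 CPM in a library (3 counts, counting error only). Its ZT5 mean of 1.44 CPM was at least 5.62-fold higher than that.

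**Figure D3:**
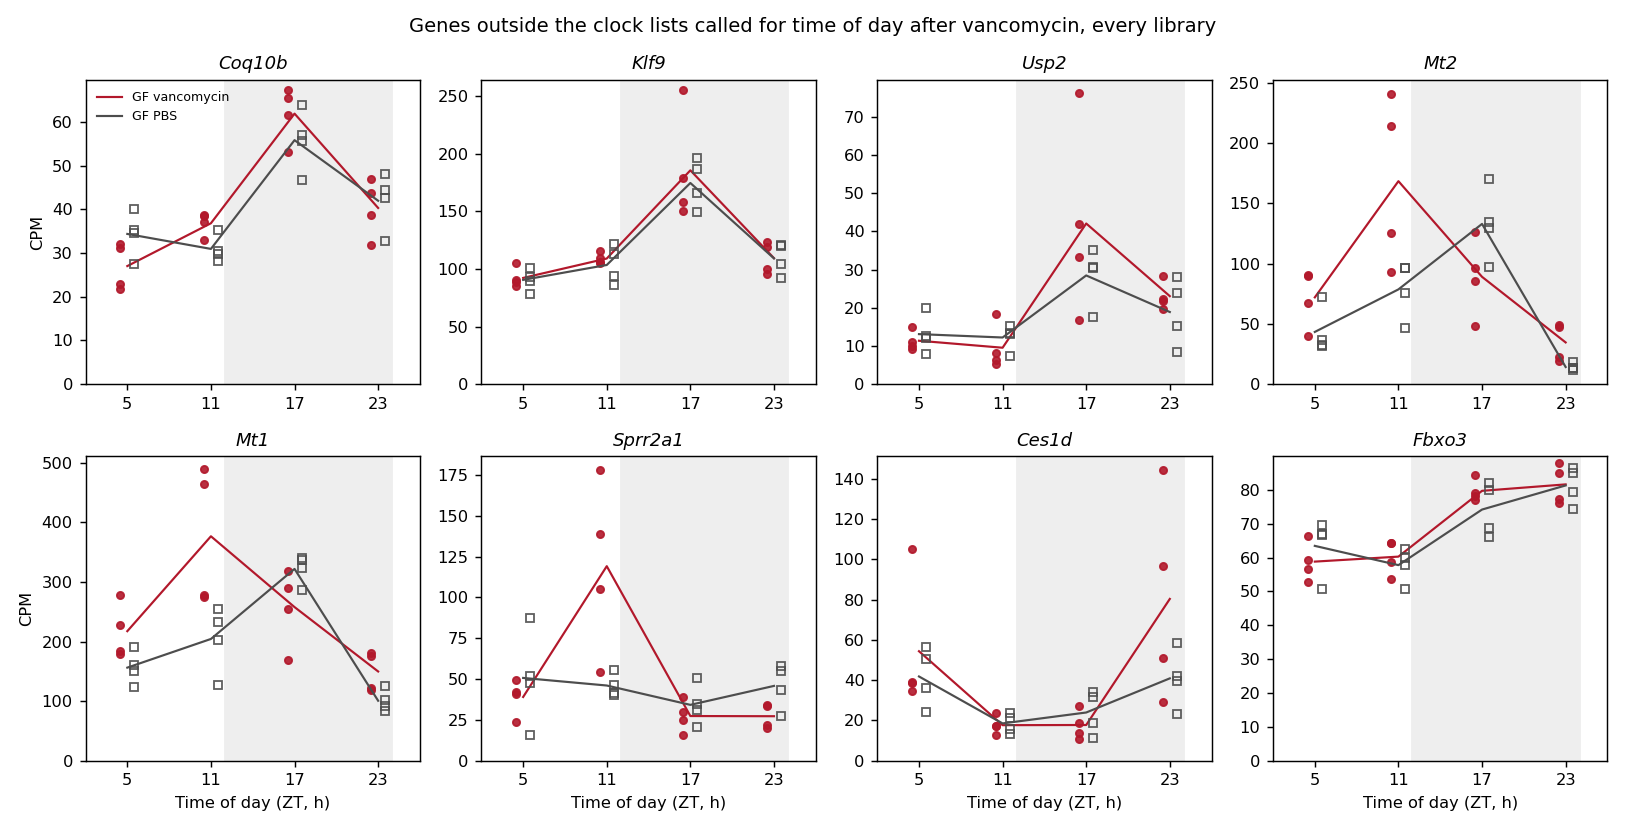
CPM (y axis, from 0) of 8 genes called outside the clock lists at ZT5, ZT11, ZT17 and ZT23 (x axis), 1 point per library, filled circles for GF vancomycin and open squares for GF PBS, with lines through the group means; the grey band is the dark phase. After vancomycin the means of Coq10b, Klf9 and Usp2 are highest at ZT17, those of Mt2, Mt1 and Sprr2a1 at ZT11, and those of Ces1d and Fbxo3 at ZT23.

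Comparing times 12 h apart gave directions. At ZT17, 20 genes differed from ZT5 (0.118% of those tested; DESeq2 called 147): 13 were higher at ZT17 (0.0767%) and 7 lower (0.0413%). Higher were 7 clock genes, by between 5.01 ± 0.42 (Ciart) and 1.51 ± 0.23 (Per1) on the log2 scale, with Dbp at 4.06 ± 0.41, Tef at 2.58 ± 0.34, Nr1d1 at 2.37 ± 0.39, Nr1d2 at 2.32 ± 0.30 and Per3 at 2.32 ± 0.25. The other 6 were Mchr1, Coq10b (1.2 ± 0.15), Klf9 (1.01 ± 0.14), H2ac18 (1.61 ± 0.32), Tesk2 (1.10 ± 0.22) and Cipc (0.87 ± 0.17), a CLOCK-interacting inhibitor. Lower at ZT17 were Npas2 (-2.10 ± 0.32), Nfil3 (-1.82 ± 0.28), Arntl (-1.76 ± 0.29), the cell cycle factor E2f2 (-1.78 ± 0.33), Gm3617 (-1.99 ± 0.38), Slc66a2 (-0.61 ± 0.13) and Gm47154. At ZT23, 3 genes differed from ZT11 (0.0177%), all lower at ZT23: Nr1d1 (-3.05 ± 0.39, edgeR adjusted p = 0.00162), Mt2 (-2.28 ± 0.35, adjusted p = 0.0118) and Mt1 (-1.33 ± 0.23, adjusted p = 0.0245). DESeq2 called 38 genes there. By edgeR the 3 became 10 without ZT11 replicate 1, and 1 without any of ZT11 replicate 2, ZT11 replicate 3, ZT23 replicate 3 and ZT23 replicate 4. The 20 became 42 without ZT17 replicate 4.

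Pathways outside the clock were read against the same background, 0.142% called, with the lists chosen while earlier results of these data were known. Of all genes tested, 9.51% had an unadjusted p under 0.05 in edgeR, and the median amplitude was 0.18. The highest mean was at ZT5 in 27.2% of all genes, at ZT11 in 25.7%, at ZT17 in 27.7% and at ZT23 in 19.4%. Among 40 interferon-stimulated genes, none was called and 8 had an unadjusted p under 0.05; 36 had their highest mean at ZT11, and the median difference of ZT23 minus ZT11 was -0.90 (log2). Zbp1, a sensor of nucleic acids, was an example, at 29.8, 12.4, 9.80 and 22.7 CPM at ZT5, at 22.5, 124, 99.2 and 30.2 at ZT11, at 59.2, 22.9, 24.3 and 7.52 at ZT17, and at 14.9, 9.0, 15.6 and 10.1 at ZT23 (edgeR adjusted p = 0.242). Its high values came from ZT11 replicates 2 and 3. Of 26 antimicrobial and microbe-induced epithelial genes none was called, 10 had an unadjusted p under 0.05 and the median amplitude was 0.69. Reg3b, a lectin that binds bacteria, stood at 7.63, 5.46, 702 and 0.129 CPM at ZT5, at 7.49, 0.0767, 0.0709 and 0 at ZT11, at 0, 0.0792, 0.511 and 0.548 at ZT17, and at 54.6, 259.6, 0.997 and 1.16 at ZT23. The high libraries, ZT5 replicate 3 and ZT23 replicate 2, are the 2 with the lowest position scores. Hoxb8, a proximal Hox gene, was also highest in these 2, at 88.9 and 39.7 CPM. The edgeR adjusted p was 0.225 for Reg3b and 0.266 for its relative Reg3g. The part of position in these values was not tested.

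**Figure D4:**
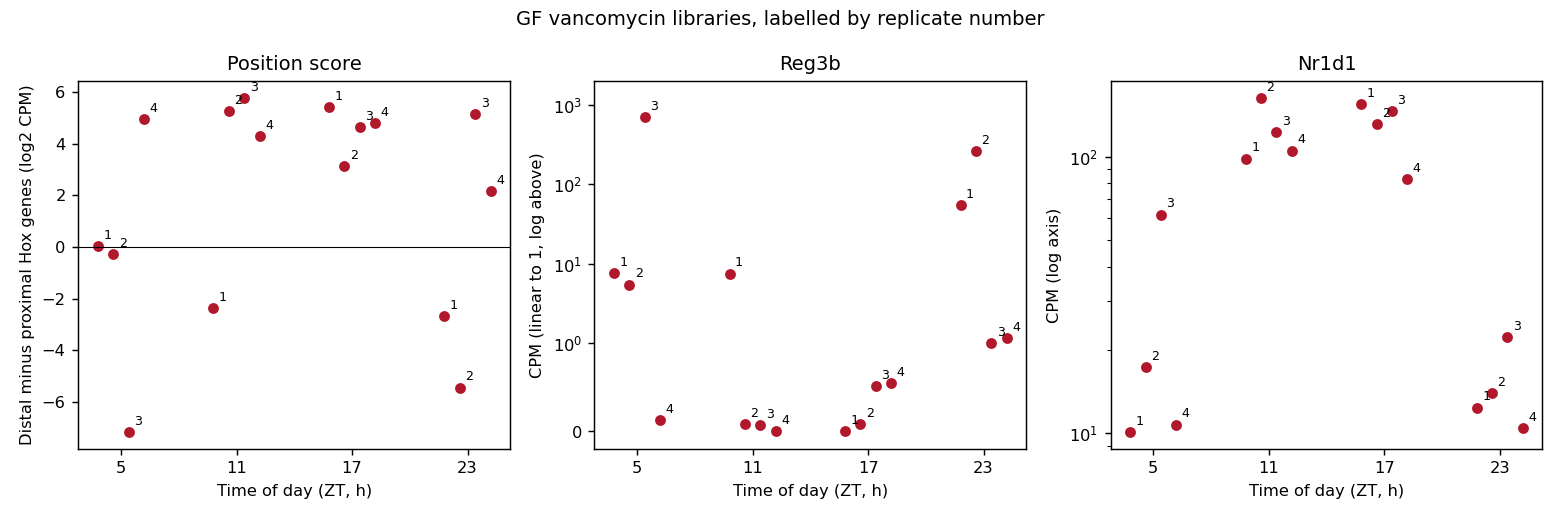
Each of the 16 GF vancomycin libraries, numbered by replicate, at its time of day (x axis, ZT in h): the position score (left, distal minus proximal Hox genes, log2 CPM), Reg3b (middle, CPM on an axis that is linear to 1 and logarithmic above) and Nr1d1 (right, CPM on a log axis). The libraries with the lowest scores, ZT5 replicate 3 and ZT23 replicate 2, hold the highest Reg3b values, 702 and 259.6 CPM, and ZT5 replicate 3 is also the highest ZT5 library of Nr1d1.

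The next counts stand beside the same shares of all genes: highest at ZT5 27.2%, ZT11 25.7%, ZT17 27.7% and ZT23 19.4%, and unadjusted p under 0.05 in 9.51%. Of 19 DNA replication genes none was called, 16 were highest at ZT5 and the median of ZT17 minus ZT5 was -0.59. Among 23 mitosis genes none was called, with 11 highest at ZT5 and 11 at ZT11. Of 25 cholesterol synthesis genes none was called, 16 were highest at ZT23, and 1 had an unadjusted p under 0.05. Fatty acid synthesis (18 genes) had none called and a median amplitude of 0.41; Acaca, acetyl-CoA carboxylase, had the value nearest a call (edgeR adjusted p = 0.107, peak ZT1.57). Salt and water transport (28 genes) had none called, 6 at an unadjusted p under 0.05 and 14 highest at ZT17. Immediate early genes (27) had none called across the 4 times and 8 at an unadjusted p under 0.05; Ier5 was called for the 24 h wave. Cytosolic ribosomal proteins (38) had none called, and 27 were highest at ZT11. Clock modifiers (12) had none called across the 4 times, Cipc being called for the 24 h wave.

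No member was called across the 4 times in any of the other pathways. These were cold-inducible RNA-binding proteins (2 tested), heat shock chaperones (20), endoplasmic reticulum chaperones and stress (26), fatty acid oxidation and ketogenesis (29), nutrient transporters (24), crypt stem cell and Wnt targets (15), pattern recognition and NF-kB signalling (27), cytokines and chemokines (16), ribosome biogenesis (20), autophagy (18), tight junction (18), and bile acid and lipid nuclear receptors (16). At an unadjusted p under 0.05 these had between 0 and 6 members. Among cell type markers, Hox genes and Y-linked genes none was called either. Still, all 3 proximal Hox genes tested had an unadjusted p under 0.05 in edgeR, against 9.51% of all genes. All 3 were highest at ZT5, with a median ZT17 minus ZT5 of -4.25 (log2). Their median amplitude was 2.51, against 0.18 over all genes. For Hoxb8 at ZT5, replicate 3 was at 88.9 CPM and the others at 0.936, 1.07 and 0.257 CPM. None of the 4 distal Hox genes tested had an unadjusted p under 0.05 in edgeR. Whether gut position differed between the times was not tested as such. All 8 tuft cell markers, 12 of 16 smooth muscle markers, 13 of 17 markers of interstitial cells, neurons and glia, 12 of 15 B cell markers and 11 of 14 T and NK cell markers were highest at ZT17. Of all genes tested, 27.7% were highest at ZT17. Other lists leaned elsewhere: 9 of 14 macrophage and dendritic cell markers and 7 of 12 fibroblast markers were highest at ZT5. At ZT11 were 7 of 14 goblet cell markers, and at ZT23 6 of 12 adipose and mesothelium markers. Over all genes the shares were 27.2% at ZT5, 25.7% at ZT11 and 19.4% at ZT23. The smooth muscle score overlapped between times, at 8.00 to 10.03, 8.32 to 9.74, 8.57 to 10.4 and 8.32 to 9.73 (mean log2 CPM) at ZT5, ZT11, ZT17 and ZT23. The B cell score ran from 1.25 to 5.40 at ZT17 and from -0.96 to 4.64 at the other times. Their part in the values at ZT17 was not tested beyond fits with either score as a covariate, in which the count across the 4 times was 55 with the B cell score and 43 with the smooth muscle score.

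The time profile after vancomycin was set against that of GF mice given PBS, the question being whether the drug alters the profile where there are no microbes. The 2 treatments were not alike in Ddx3y. It was at 0.396 CPM or less in 3, 1, 2 and 3 of 4 vancomycin libraries at ZT5, ZT11, ZT17 and ZT23. After PBS it was low only in ZT17 replicate 4 (0.0815 CPM) and ZT23 replicate 4 (0.674 CPM), and at 45.4 CPM or more elsewhere. Position scores were not alike either. After PBS they ran from -1.66 to 5.01 at ZT5, 1.58 to 6.11 at ZT11, -4.51 to 5.25 at ZT17 and 4.52 to 5.48 at ZT23. After vancomycin they ran from -7.16 to 4.96, -2.36 to 5.78, 3.13 to 5.41 and -5.45 to 5.16 in the same order. The part of these differences and that of the drug cannot be fully told apart. No gene's profile differed by edgeR at an adjusted p under 0.05 (0 of 16951); 1405 had an unadjusted p under 0.05, the smallest adjusted p was 0.528, and DESeq2 called 9. In GF PBS libraries 24 genes were called across the 4 times (0.142%). The 2 sets shared 15 genes, 62.5% of each. Dbp stood at 4.75 to 21, 32.9 to 45.3, 59.8 to 256 and 10.5 to 20.1 CPM at ZT5, ZT11, ZT17 and ZT23 after vancomycin, against 3.5 to 7.37, 7.41 to 21.2, 112 to 212 and 12.7 to 24.7 CPM after PBS. At ZT11 every vancomycin library of Dbp was above every PBS library. Nr1d1 at ZT11 had 98.3, 163, 123 and 105 CPM after vancomycin, against 71.5, 91.5, 84.1 and 82.6 CPM after PBS, again with no overlap. How many of all genes separate the 2 treatments at a given hour was not counted, so these separations are descriptions only.

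The fitted peak of each of the 10 called clock genes was earlier after vancomycin than after PBS, by a median of 1.12 h (difference -1.12 h, range -2.63 to -0.0392 h). The 95% intervals excluded 0 for 5 of them. For Nfil3 the difference was -2.63 h (-4.01 to -1.25), for Dbp -1.70 h (-2.70 to -0.690), for Nr1d2 -1.65 h (-3.03 to -0.264), for Per3 -1.51 h (-2.58 to -0.442) and for Nr1d1 -1.24 h (-2.28 to -0.200). For the other 5 the differences were -0.993 h (Npas2), -0.797 h (Tef), -0.753 h (Ciart), -0.432 h (Per1) and -0.0392 h (Arntl). Per2, a clock gene called for the 24 h wave but not across the 4 times, went the other way, by 0.289 h (-2.79 to 3.37). None of the 10 passed the test of the difference in profile; the smallest p was that of Nfil3 (unadjusted p = 0.00131, edgeR adjusted p = 0.597). An earlier peak was also common outside the clock: of 421 other genes with an unadjusted p under 0.05 across the times in both treatments, 70.8% peaked earlier after vancomycin, by a median difference of -1.54 h (quartiles -3.89 to 0.486 h). All of these genes come from the same libraries and are not independent.

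Among the 10 called clock genes, Nfil3 differed most in hour from PBS and was the 1 whose 95% interval of the amplitude difference excluded 0. At ZT23 it stood at 8.40, 13.9, 4.76 and 8.92 CPM after vancomycin, against 4.75, 3.93, 4.38 and 3.15 CPM after PBS. At ZT17 it stood at 3.5, 6.34, 4.43 and 4.78 CPM after vancomycin, against 2.12, 2.82, 1.77 and 2.93 CPM after PBS. At both dark-phase times all 4 vancomycin libraries were above all 4 PBS libraries, a description given without the share of all genes so separated, which was not counted. At ZT23 the lowest vancomycin library, replicate 3 at 4.76 CPM, was nearly level with the highest PBS library at 4.75 CPM. Replicate 3 had a position score of 5.16, within the 4.52 to 5.48 of the PBS libraries. The other ZT23 vancomycin libraries scored -2.68, -5.45 and 2.15. The part of position in this difference was not tested. The amplitude differed by -0.43 (95% interval -0.84 to -0.03, log2). Over the 10 clock genes the amplitude was larger after vancomycin in 3, and the median difference was -0.04. Mt2 had its highest mean at ZT11 after vancomycin (168 ± 70.6 CPM) and at ZT17 after PBS (133 CPM). Sprr2a1 had a mean of 119 ± 52.5 CPM at ZT11 after vancomycin, against 46.1 CPM after PBS.

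**Figure D5:**
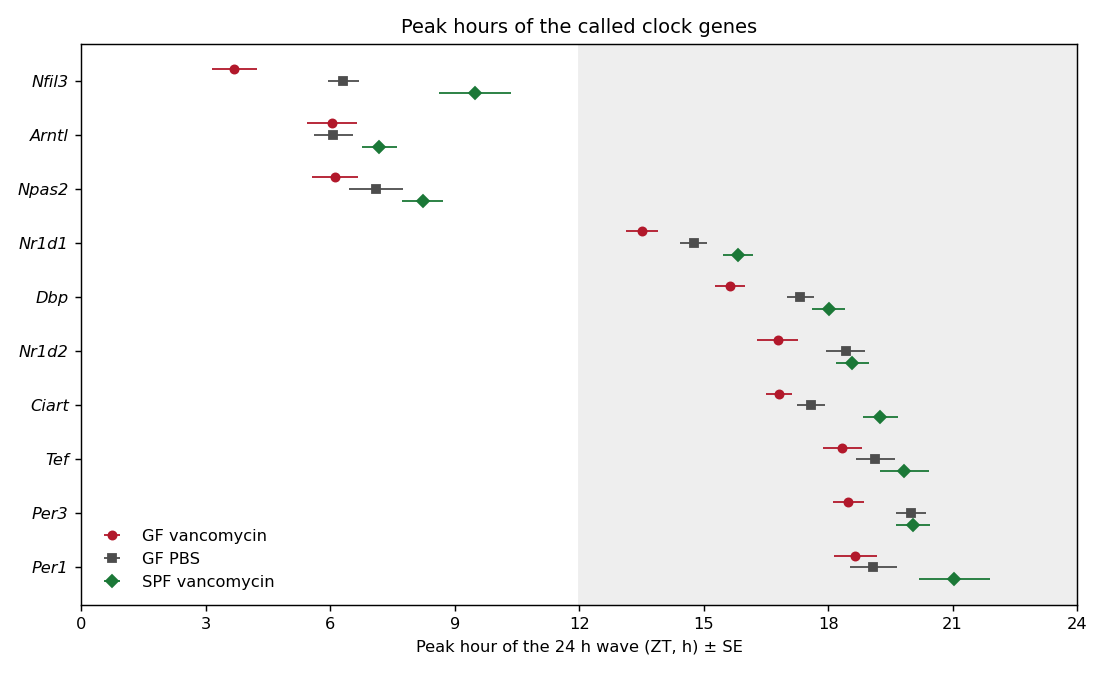
Fitted peak hour (x axis, ZT in h, ± SE) of the 10 called clock genes (rows) in GF vancomycin, GF PBS and SPF vancomycin colon; the grey band is the dark phase. In each gene the GF vancomycin point is the earliest of the 3, with differences of -2.63 to -0.0392 h from GF PBS.

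Against SPF mice given the same vancomycin, the question was whether the profile depends on the presence of microbes. The 2 kinds of mice come from separately deposited tables, so only differences between times within each kind were tested, in 1 fit of 16604 genes, and levels given for both are on a shared scaling that a difference between tables could shift. The profile differed in 25 genes (0.151%); DESeq2 called 377. The count rested on single libraries: it was 997 without GF vancomycin ZT11 replicate 1, and between 11 and 128 when each of the other 31 libraries was left out in turn. That library was the only ZT11 library with a position score under 0 (-2.36, against 4.30 to 5.78 in the other 3). It was also the only ZT11 library without Ddx3y (0 CPM, against 65.5 to 73.0 CPM in the other 3). Without it the 997 were 6.0% of the genes tested, and they included 5 of 21 clock genes (Nfil3, Dbp, Nr1d1, Ciart and Clock), 7 of 26 antimicrobial genes, 6 of 18 fatty acid synthesis genes, 6 of 24 nutrient transporters, 5 of 29 fatty acid oxidation genes, 4 of 16 smooth muscle markers and 3 of 12 fibroblast markers. No interferon-stimulated gene was among them. The part of position or of Y-linked genes in this count was not tested. In SPF vancomycin libraries 324 genes were called across the 4 times (1.95%). The GF and SPF vancomycin sets shared 16 genes, 66.7% of the GF set and 4.94% of the SPF set.

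All 10 called clock genes peaked earlier in GF than in SPF vancomycin colon, by a median difference of -2.21 h (range -5.80 to -1.15 h), against -1.22 h in 359 other genes with an unadjusted p under 0.05 in both, of which 57.1% were earlier. Nfil3 was the 1 clock gene whose profile was called different (edgeR adjusted p = 0.0393). On the shared scaling it stood at 12.2, 19.9, 21.2 and 15.6 CPM at ZT5 and 3.49, 6.70, 4.49 and 4.83 CPM at ZT17 in GF mice, against 9.99, 9.62, 12.3 and 20.01 CPM at ZT5 and 11.9, 15.2, 5.15 and 3.39 CPM at ZT17 in SPF mice. The GF libraries were separated between these times, and the SPF libraries overlapped.

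Of the other genes called different, those with the smallest p and a group mean of at least 10 CPM were H2-T23, Pgd, Nmnat1, Klf8, Ifi27l2b and Hnrnpll. H2-T23, a nonclassical MHC class I gene with near relatives among which reads may be split, stood at 137, 71.6, 73.8 and 40.8 CPM at ZT11 and 49.2, 35.4, 34.4 and 39.4 CPM at ZT23 in GF mice, against 50.9, 73.4, 34.1 and 41.1 CPM at ZT11 and 202, 188, 127 and 156 CPM at ZT23 in SPF mice (edgeR adjusted p = 0.00501). Every SPF ZT23 library was above every GF ZT23 library. Ifi27l2b, an interferon-inducible gene, stood at 30.2, 26, 25.6 and 16.2 CPM at ZT17 in GF mice, against 113, 104, 68.5 and 55.9 CPM in SPF mice (edgeR adjusted p = 0.0127). Pgd, of the pentose phosphate pathway, stood at 115, 100.2, 129 and 126 CPM at ZT17 in GF mice, against 191, 196, 268 and 294 CPM in SPF mice (edgeR adjusted p = 0.00501). In both genes the ZT17 libraries of the 2 kinds did not overlap. As these genes, like H2-T23, were picked by this test on the same libraries, such separation describes the call and adds no support. It also compares levels across the 2 tables, which a difference between the tables could shift. The edgeR adjusted p was 0.00764 for Nmnat1, 0.0106 for Klf8 and 0.0181 for Hnrnpll.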

How the data were processed

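Whole colon RNA was poly(A)-selected and sequenced single-end, per the labels' protocols. Per the submitters' processing notes, Trim Galore 0.6.2, cutadapt 3.5 and Salmon were used, with GRCm39. The deposited values are estimated counts per gene that need not be whole, in 1 table of 35534 genes and 32 libraries for each kind of mouse; the smallest steps between values matched single reads, so the authors had not scaled them for depth. Here they were rounded to whole numbers. Genes with at least 10 in at least 4 libraries were fitted with edgeR 4.0.16 (R 4.3.3, TMM scaling, 8 group means over the 32 GF libraries, quasi-likelihood). Time was tested with 3 contrasts in GF vancomycin libraries, the 24 h wave with 2 and the 12 h remainder with 1, each adjusted over all genes; standard errors of amplitude and peak hour came from the delta method. Differences in profile were tested as contrasts of contrasts, against SPF mice in a fit of all 64 libraries with 16 group means. CPM are these counts scaled to equal library size by TMM. The steps were tested on simulated data. Alternatives were DESeq2 1.42.0, limma-trend 3.58.1, other scaling and filters, covariates, the replicate number as a block and each library left out. No library was left out of the main results.

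Named are the clock genes tested, except 1 result that is not reported here, the 12 other genes with the smallest p, the 4 called genes of largest amplitude at each time, up to 3 called members of each list, and for each difference in profile the 6 called genes with the smallest p, with a mean CPM of at least 10 outside the lists. Mchr1, Tcp11, Gm47154, Reg3b, Reg3g, Hoxb8, Zbp1, Acaca and the other genes of counts given in full were named after their values were seen. The members, gene lists and motifs were chosen with earlier results of these data known. Promoters came from RefSeq.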

Additional observations from a re-analysis of the deposited data

Results flagged for a closer look

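Among 156 pairs of a named gene and a GF vancomycin group, 8 had 1 library far from the other 3; chance alone flags about 1 in 20 groups. The gap to the nearest library was taken as a share of the group's range, both in log2 CPM. It was 0.844 for Per1 in ZT11 replicate 4 (27.1 CPM, next 32.4 CPM) and 0.844 for Cry1 in ZT11 replicate 2 (9.13 CPM, next 53.0 CPM), both low. It was 0.891 for Ces1d in ZT5 replicate 3 (105 CPM, next 39.2 CPM), the library with the lowest position score. It was 0.87 for Pgd in ZT11 replicate 1 (157 CPM, next 118 CPM), 0.878 for Rorb in the same library (5.33 CPM, next 3.53 CPM) and 0.867 for Pgd in ZT23 replicate 1 (169.9 CPM, next 135 CPM), all high. It was 0.889 for Klf8 in ZT23 replicate 4 (15 CPM, next 1.65 CPM), which was high, and 0.928 for Nmnat1 in ZT23 replicate 2 (14.3 CPM, next 21.9 CPM), which was low.

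The time profile differed between GF and SPF vancomycin colon, by the edgeR test of the difference itself, for Nfil3 (adjusted p = 0.0393), H2-T23 (0.00501), Pgd (0.00501), Nmnat1 (0.00764), Klf8 (0.0106), Ifi27l2b (0.0127) and Hnrnpll (0.0181). Klf8 in GF mice was between 1.01 and 2.76 CPM in all libraries but ZT23 replicate 4. In SPF mice Klf8 stood at 0.865, 1.17, 11.9 and 15.6 CPM at ZT5 and at 1.32, 27.2, 13.9 and 15.4 CPM at ZT11.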

How the results depend on the processing

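DESeq2 called 179 genes across the 4 times, 152 for the 24 h wave, 13 for the 12 h remainder, 147 for ZT17 minus ZT5, 38 for ZT23 minus ZT11, 9 for vancomycin against PBS and 377 for GF against SPF. A fit of the 16 vancomycin libraries alone called 13, 10, 0 (12 h), 10 and 0 genes in the first 5 of these. The colon position covariate gave 8 for ZT23 minus ZT11. With the mean of Y-linked genes as a covariate, Ces1d, Smim10l1, Wdr89, Mt1 and H2ac18 lost their call across the times. The B cell covariate gave 55, 69 and 69 across the times, for the 24 h wave and for ZT17 minus ZT5, and 46 against SPF; the smooth muscle covariate gave 43, 62 and 51 for the first 3. With no filter, 16 genes differed from SPF. Without the 2 libraries of lowest position score, chosen after seeing the data, 17 were called for the 24 h wave and 11 against SPF. The causes were not tested.

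Leaving out each library in turn gave 14 to 69 genes across the times, 16 to 73 for the 24 h wave, 0 for the 12 h remainder, 16 to 42 for ZT17 minus ZT5, 1 to 10 for ZT23 minus ZT11, 0 to 1 against PBS (1 without GF PBS ZT5 replicate 2) and 11 to 997 against SPF. The median peak difference of clock genes from PBS ran from -1.27 to -0.908 h there and from -1.13 to -0.894 h in the other settings. Besides 997, the count against SPF moved over 1.5 times without GF replicates 4 of ZT5 (74), 2 and 3 of ZT11 (14, 16), 1, 3 and 4 of ZT17 (13, 15, 104) and 2 and 3 of ZT23 (16, 128), and without SPF replicates 1 and 3 of ZT5 (11, 13), 2, 3 and 4 of ZT11 (103, 73, 15), 1, 3 and 4 of ZT17 (12, 16, 12) and 2 and 3 of ZT23 (15, 12).

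Of the named genes' values, 545 kept side and direction when a library was left out, 72 lost a call, 6 gained one and 1 reversed: Arntl2, uncalled throughout, had an amplitude of 0.31 with the wave turned over without ZT23 replicate 4 (0.18 to 0.33 over all libraries left out). In other settings 423 kept both, 32 lost a call and 12 gained one. Ciart, Dbp, Per3, Nr1d1, Per1, Coq10b, Tef, Klf9 and Nr1d2 were called in all 28 alternatives, Nfil3 and Sprr2a1 in 27, Npas2 in 26, Mt2 and Arntl in 23, Ces1d and Usp2 in 18, Fbxo3 and Mt1 in 16, Smim10l1 in 14, H2ac18 in 13 and Wdr89 in 11.

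The replicate numbers gave no clear pairing of the samples: of 24 pairs of libraries with the same number at 2 times, 7 had deviations correlated over 0.1 (range -0.470 to 0.537), and 6 of 16 libraries matched their own number best. This check could miss a weaker pairing, as libraries of a group also differed in position score and Y-linked genes. With the replicate number as a block, 18, 28, 0, 20 and 2 genes were called in the 5 tests within vancomycin libraries, 0 against PBS and 17 against SPF.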

Other observations

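Without ZT11 replicate 1, 69 genes were called across the 4 times in GF vancomycin colon, with the highest mean at ZT5 in 21, at ZT11 in 26, at ZT17 in 15 and at ZT23 in 7. They added Acaca, acetyl-CoA carboxylase (adjusted p = 0.0198, peak ZT1.14), Rbp4, the retinol carrier (adjusted p = 0.0159, peak ZT2.29), Bmp7, a growth factor (adjusted p = 0.0161, peak ZT2.18), and Lgr4, a receptor for R-spondins (adjusted p = 0.0159, peak ZT13.2), all by edgeR and named after their values were seen. The library left out had a position score of -2.36 and no Ddx3y. The ZT11 libraries that remained scored 4.30 to 5.78, with Ddx3y at 65.5 to 73.0 CPM. Scores ran from -7.16 to 4.96 at ZT5 and from -5.45 to 5.16 at ZT23. Acaca stood at 81.5 CPM in the library left out and at 47.8, 43.5 and 39.1 CPM in the remaining ZT11 libraries. The part of position or of Y-linked genes in these added calls was not tested.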
